A study of Mus musculus with 34 samples.

Results

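Olig1, Olig2, Olig3, Pax6, Sox1, Nes and Hes5 were followed in mouse epiblast stem cells (EpiSC) and in definitive endoderm (DE) derived from them, across 7 inbred strains. These 7 genes were taken by name from the 53655 genes of each raw count table, and all 7 are listed in both. Olig1 was put among them because earlier results of these data had shown its summed EpiSC counts to be high in C57BL/6J alone, so strain levels in EpiSC are given below as a description with no test. The libraries comprised 17 of EpiSC (C57BL/6J 5, PWK/PhJ 3, CAST/EiJ, NOD/ShiLtJ, NZO/HiLtJ and WSB/EiJ 2 each, DBA/2J 1) and 17 of DE (C57BL/6J 5, PWK/PhJ 4, NOD/ShiLtJ, NZO/HiLtJ and WSB/EiJ 2 each, CAST/EiJ and DBA/2J 1 each), each from its own cell line, and 16 lines were measured as both. EpiSC, which correspond to the postimplantation epiblast, grew on irradiated embryonic fibroblasts (MEFs) in N2B27 to which hsFGF (12.5 ng/mL), the tankyrase inhibitor NVP-TNKS656 (175 nM) and Activin A (20 ng/mL) were added. For DE, cells were plated on laminin in chemically defined medium for 5 h. They then received 3 uM CHIR with 40 ng/mL Activin A for 16 h, followed by 100 ng/mL Activin A with 100 nM LDN-193189 for 24 h, and were collected by magnetic selection for CXCR4. The labels give no sex, passage or clonal origin of the lines.

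The anterior epiblast becomes neuroectoderm when Nodal/Activin, BMP and WNT signals are low, and EpiSC culture holds the cells short of that step with Activin and FGF. Sox1 encodes a SOXB1 factor of the first neural plate, Pax6 a paired-box factor of forebrain, eye and spinal cord progenitors, and Nes the intermediate filament nestin of neural progenitors, which other proliferating cells, cultured fibroblasts among them, also make. Hes5 encodes a bHLH repressor induced by Notch in neural progenitors. Olig1, Olig2 and Olig3 encode bHLH factors of the spinal cord and brain: Olig2 specifies motor neurons and oligodendrocytes, Olig1 acts in oligodendrocyte maturation, and Olig3 marks dorsal progenitors.

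In the GRCm38 build with GENCODE M21 annotation, Olig1 is a gene of 1 exon at chr16:91269772-91271933 on the plus strand, and Olig2 lies at chr16:91225457-91228677 on the same strand, its start 44.3 kb upstream of the start of Olig1. Olig3 is on another chromosome, at chr10:19356533-19358604. The remaining genes are Pax6 (chr2:105668900-105697364), Sox1 (chr8:12395295-12400126), Nes (chr3:87971078-87980451) and Hes5 (chr4:154960923-154962371), all protein-coding and on the plus strand. The OLIG transcripts are shown at their longest identical runs. Stretches that are alike but not identical were not searched, so whether reads of an OLIG gene were counted for another was not tested. The longest identical runs, in lower case throughout, were 17 bases for Olig1 with Olig2 and for Olig1 with Olig3, and 29 bases for Olig2 with Olig3.
Olig1 and Olig2: aagatcaacagccgcga
Olig1 and Olig3: cgcaagctctccaagat
Olig2 and Olig3: tcggtgcgcaagctctccaagatcgccac
No longer run was shared by any pair. Olig1 shares 157 exon bases with Gm15966, a noncoding gene on the opposite strand, and Hes5 shares 433 with Gm20421, also opposite. Neither has an entry in the count tables, and the strand setting of the counting is not given in the sources used here. Pax6os1, which overlaps Pax6 on the opposite strand without a shared exon base, had 2 counts over all EpiSC and 1 over all DE libraries.

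Upstream sequence is printed for Olig2, which moved with Olig1, and for Nes and Hes5, whose counts were lower in DE than in EpiSC. RefSeq (GRCm38.p6) promoter windows were found for 6 of the 7 genes, all but Olig1, and were ended just before the GENCODE start. Capitals mark matches, on either strand, to CAGCTG (a bHLH E-box), GTGGGAA (the RBPJ motif of Notch targets), CCAAT (the NF-Y box), to ACAATG, a SOX motif, and to TATAAA.
Olig2, chr16:91225300-91225456: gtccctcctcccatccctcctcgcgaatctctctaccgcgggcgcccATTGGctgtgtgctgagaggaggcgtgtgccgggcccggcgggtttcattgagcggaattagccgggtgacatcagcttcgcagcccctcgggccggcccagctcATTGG
Nes, chr3:87970843-87971077: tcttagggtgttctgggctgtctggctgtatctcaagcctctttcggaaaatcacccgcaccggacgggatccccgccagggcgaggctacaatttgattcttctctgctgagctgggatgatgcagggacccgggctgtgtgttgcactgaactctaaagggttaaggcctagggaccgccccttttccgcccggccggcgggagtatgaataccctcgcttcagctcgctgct
Hes5, chr4:154960673-154960922: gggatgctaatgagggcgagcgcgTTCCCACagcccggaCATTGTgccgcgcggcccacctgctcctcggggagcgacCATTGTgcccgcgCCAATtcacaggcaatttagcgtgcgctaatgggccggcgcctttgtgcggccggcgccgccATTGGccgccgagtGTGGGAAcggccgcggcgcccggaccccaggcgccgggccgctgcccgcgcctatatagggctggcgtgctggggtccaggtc
The 250 bases before Hes5 held GTGGGAA at 2 places, 1 on each strand, and 5.42% of 32851 promoter windows of that length hold this motif at least once. They also held 2 matches to CCAAT (33.8% of windows) and 2 to ACAATG (10.7%). The 157 bases before Olig2 held CCAAT at 2 places, both on the minus strand, against 21.0% of windows of that length with a match, and the Nes window held none of the 5 motifs.

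EpiSC libraries held 25584647 to 33831684 counts and DE libraries 23772045 to 67722013. Levels are given as CPM, the counts of a gene per 1000000 counts of the library. Endoderm markers followed the labels: Sox17 was at 375 to 1366 CPM in DE and 0.473 to 28.9 in EpiSC, and Pou5f1, a pluripotency factor, at 0.831 to 90.4 in DE and 400 to 743 in EpiSC. Among DE libraries the NOD/ShiLtJ line AC576 stood apart, with the lowest sum over 10 endoderm genes (1576 CPM, against 4142 or more in the others) and the highest Pou5f1. The summed level of 15 fibroblast genes ranged from 160 to 5269 CPM in EpiSC and from 177 to 2290 CPM in DE, none of the 15 was at 0 in any EpiSC library, and NOD/ShiLtJ lines AC576 and AC595 were the highest of DE. Sox10, a defining gene of oligodendrocyte lineage and neural crest, reached at most 0.421 CPM in EpiSC and 2.13 in DE. In bulk RNA, fewer cells with a transcript and less transcript per cell cannot be told apart.

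Olig1 was detected chiefly in C57BL/6J. In C57BL/6J EpiSC it had 859 counts in line 2, 1397 in line 4, 1004 in line 1, 1282 in line 5-1 and 115 in line 44, which is 32.5, 50.4, 38.2, 46.6 and 3.69 CPM. In the 12 EpiSC libraries of the other strains it had between 0 and 20 counts, with a median of 3.5 and a sum of 59. Every C57BL/6J library was above every other library, including line 44, which was far below the other C57BL/6J lines. Of 17868 genes tested in EpiSC, 0.66% also had every C57BL/6J library above every other and 0.42% had every one below. This separation is what Olig1 was chosen on, and nothing is read from it.

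The order of the strains for Olig1 in EpiSC was C57BL/6J at 34.3 ± 18.5 CPM (SD, n = 5), CAST/EiJ at 0.542 ± 0.228 (SD, n = 2), DBA/2J at 0.178 (n = 1), PWK/PhJ at 0.111 ± 0.118 (SD, n = 3), WSB/EiJ at 0.106 ± 0.0417 (SD, n = 2), NZO/HiLtJ at 0.0911 ± 0.0831 (SD, n = 2) and NOD/ShiLtJ at 0.0479 ± 0.0159 (SD, n = 2). The CAST/EiJ lines, with 11 and 20 counts, were above the libraries of the 5 lower strains, whose neighbours in this order overlapped. PWK/PhJ line AC698 had 0 counts, which allows up to 0.110 CPM (3 counts of its total, counting error only). The mean over C57BL/6J lines was 197 times that over the other lines. With 0.1 CPM added to each mean, the log2 ratio of these means was 6.97. Among the single C57BL/6J lines, log2(CPM + 0.1) had an SD of 1.56.

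**Figure D1:**
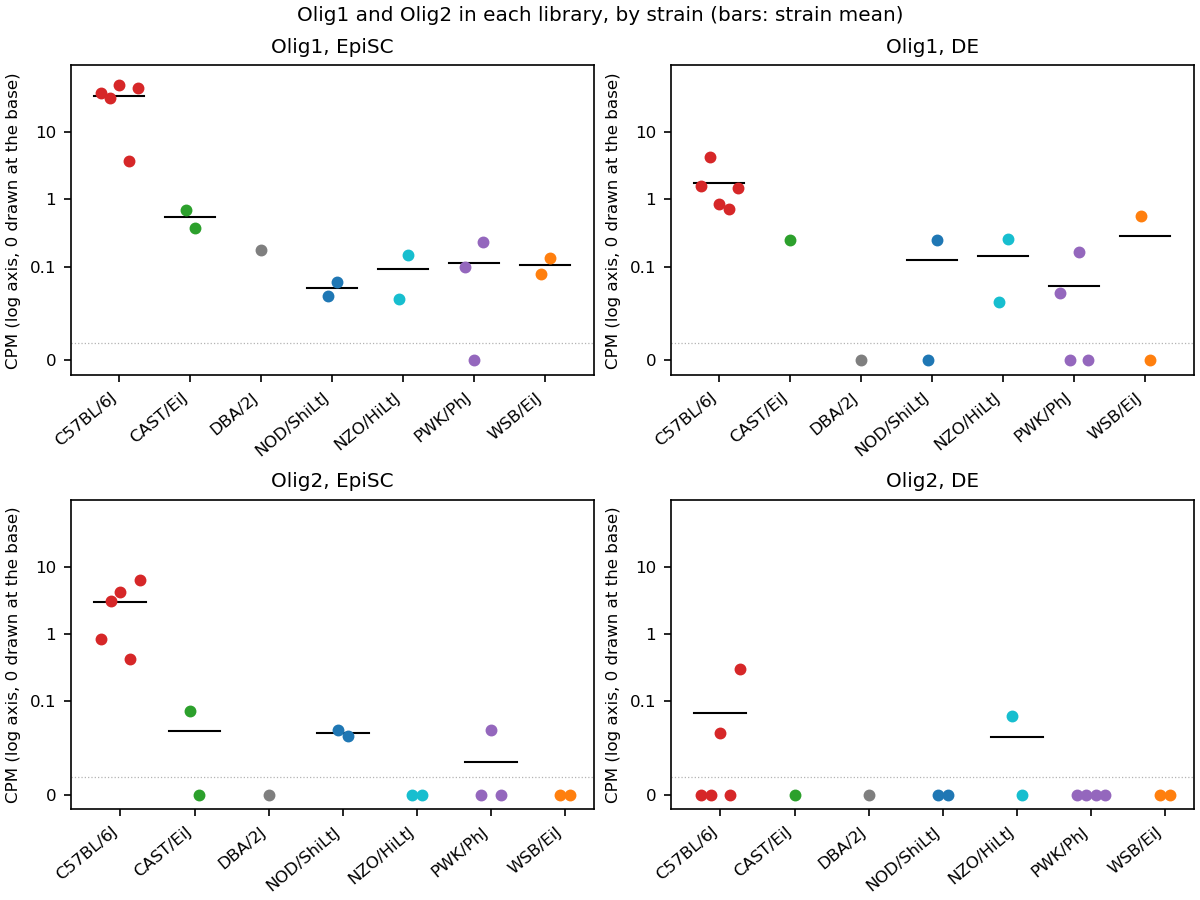
Olig1 (top) and Olig2 (bottom) in each EpiSC (left) and DE (right) library, as CPM on a log axis with 0 drawn at the base; each point is 1 library and each bar a strain mean. The C57BL/6J points of Olig1 lie above all others in both cell types, at 3.69 to 50.4 CPM in EpiSC and 0.717 to 4.28 CPM in DE.

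Olig2, the neighbour of Olig1, had the same C57BL/6J pattern at a lower level. It had 80, 115, 22, 172 and 13 counts in lines 2, 4, 1, 5-1 and 44, or 2.94 ± 2.41 CPM (SD, n = 5). The 12 other EpiSC libraries had 5 counts in all, at most 2 in one library. The C57BL/6J libraries again did not overlap with the rest, and line 44 was the lowest of them for Olig2 as for Olig1. Per kilobase of exon, the C57BL/6J median was 17.7 RPKM (CPM divided by kilobases of exon) for Olig1 and 1.20 for Olig2. Olig3 had 1 count in all EpiSC libraries together, in NZO/HiLtJ line AC671, and 1 in all DE libraries together, in NOD/ShiLtJ line AC576.

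The summed levels of markers of other cell types overlapped between C57BL/6J and the rest, where those of Olig1 did not. The summed level of 15 oligodendrocyte-lineage genes was 113 to 176 CPM in C57BL/6J EpiSC and 114 to 181 in the others. That of 11 neuronal genes was 251 to 308 and 169 to 351 CPM. Such sums weight abundant genes: averaged over the EpiSC libraries, Myrf alone made up most of the oligodendrocyte-lineage sum. Single genes of these lists may differ where their sum does not. The fibroblast sum was 160 to 4231 CPM in C57BL/6J and 1070 to 5269 in the others. C57BL/6J line 1, with the lowest fibroblast sum of any EpiSC library, had 38.2 CPM of Olig1, while NOD/ShiLtJ line AC595, with the highest, had 0.0591. These libraries also differ in strain, and the part of other cells in the Olig1 level was not tested.

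The genes around Olig1 and Olig2 differed little between C57BL/6J and the other strains. GENCODE places 19 protein-coding genes, Olig2 included, with a start within 500 kb of that of Olig1, and 15 of the 18 outside the members were tested in EpiSC. Among these, 7 passed the F test over the 6 strains with at least 2 EpiSC lines (edgeR quasi-likelihood, Benjamini-Hochberg adjusted), against 52.8% of all genes tested. They were Eva1c, Synj1, Tmem50b, Dnajc28, Gart, Donson and Itsn1. The mean CPM of C57BL/6J over that of the other strains ranged from 0.828 for Tmem50b to 1.56 for Dnajc28. None had all C57BL/6J libraries above, or all below, the others. Gart, an enzyme of purine synthesis, was at 417 ± 27.6 CPM in C57BL/6J and 353 ± 65.4 in the other strains (adjusted p = 5.72e-06 over the strains), and Dnajc28 at 4.58 ± 0.855 and 2.94 ± 1.496 (adjusted p = 0.000681). The call for Synj1 ended without either CAST/EiJ line or either NZO/HiLtJ line, with adjusted p between 0.0577 and 0.0769.

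**Figure D2:**
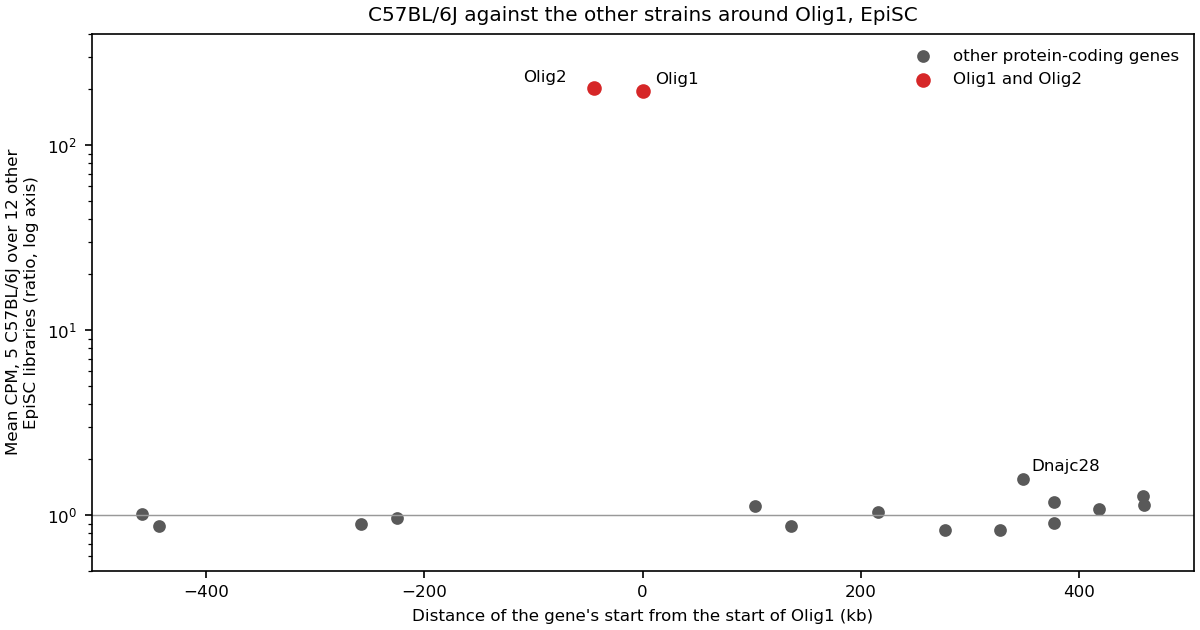
Ratio of mean CPM in the 5 C57BL/6J to that in the 12 other EpiSC libraries (log axis) for protein-coding genes, against the distance of their start from the start of Olig1 in kb. Olig1 and Olig2 sit at 197 and 203, and the 15 other tested genes between 0.828 and 1.56.

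Genes whose levels over the 17 EpiSC libraries most resembled Olig1 were, by Pearson correlation of log2 CPM, Olig2 (r = 0.95), Tdg (0.93), Rps18 (0.92), Olfr420 (0.92), Tpm3 (0.92), Slc15a2 (0.92), Lpcat3 (0.89) and Arl15 (0.87). The libraries are shared between each pair and most of the likeness is one split between C57BL/6J and the other strains. Slc15a2, a peptide transporter gene of the same chromosome, was at 6.54 ± 3.24 CPM in C57BL/6J and 0.0790 ± 0.0707 in the others. Olfr420, an odorant receptor gene, was at 0.583 ± 0.253 and 0.0434 ± 0.0997 CPM. Arl15, which encodes a small GTPase, was at 76.4 ± 11.5 and 32.1 ± 6.76 CPM. Rps18 (844 ± 47.4 against 433 ± 13.1 CPM), Tdg (123 ± 21.2 against 68.5 ± 6.35) and Tpm3 (563 ± 95.1 against 291 ± 21.8) have near-identical copies elsewhere in the genome, and their counts are uncertain for that reason. Reads of every strain were aligned to the same build, which is that of C57BL/6J. Whether reads of the other strains were lost in this way was not tested, for these genes or for Olig1 and Olig2. Line 44, the low C57BL/6J line for Olig1, had 96.1 CPM of Tdg, the lowest of the 5 lines but above every other strain. It was not the lowest C57BL/6J line for Rps18, Olfr420, Tpm3, Slc15a2, Lpcat3 or Arl15. For Slc15a2 it had 5.72 CPM, where the lowest C57BL/6J line had 3.20, and for Rps18 866, where the lowest had 798.

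The other neuroectoderm genes did not share this pattern: apart from Olig1 with Olig2, the correlations between tested members over the EpiSC libraries ran from -0.37 to 0.43. Pax6 in EpiSC had 31, 7, 142, 107 and 49 counts in C57BL/6J lines 2, 4, 1, 5-1 and 44, and 108 and 105 in NOD/ShiLtJ lines AC576 and AC595. It had 31 counts in DBA/2J and 12 to 16 in PWK/PhJ, while CAST/EiJ, NZO/HiLtJ and WSB/EiJ libraries had 2 to 6. NOD/ShiLtJ was thus highest at 3.53 ± 0.606 CPM (SD, n = 2), within the range of C57BL/6J at 2.46 ± 2.12 (SD, n = 5), and the lowest strains were NZO/HiLtJ at 0.145 ± 0.113 and WSB/EiJ at 0.140 ± 0.0896. The fitted log2 fold against C57BL/6J, given with no test, was -4.07 ± 1.05 (SE) for NZO/HiLtJ, -4.10 ± 1.05 for WSB/EiJ, -3.71 ± 1.00 for CAST/EiJ, -2.33 ± 0.74 for PWK/PhJ and 0.56 ± 0.71 for NOD/ShiLtJ.

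The genes most like Pax6 over the EpiSC libraries were Capza1 (r = 0.86), Nt5e (0.86) and Pnisr (0.82), and those most like Sox1 were Samd1 (0.80), Coq7 (0.79) and Recql4 (0.77). Sox1, the earliest neural plate marker of the set, stayed between 1 and 18 counts in every EpiSC library. The WSB/EiJ lines had 18 and 17 counts (0.632 ± 0.0798 CPM) and the NOD/ShiLtJ lines 18 and 11 (0.493 ± 0.237). C57BL/6J had 9, 1, 2, 8 and 13 (0.232 ± 0.168 CPM), so both WSB/EiJ lines and the DBA/2J line (0.427 CPM) were above all 5 of C57BL/6J, and the other strains overlapped with them. Hes5 was similarly low, at 3 to 14 counts in each EpiSC library. NZO/HiLtJ, with 12 and 13 counts of Hes5, had the highest mean at 0.438 ± 0.0696 CPM, and NOD/ShiLtJ the lowest at 0.169 ± 0.0720. C57BL/6J line 2 alone reached 14 counts, so no strain stood clear of the rest for Hes5.

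Nes was the only gene of the set that was abundant in every EpiSC library, with 5334 to 24521 counts per library and a median of 49.0 RPKM over the 17 libraries. On the same per-length scale the EpiSC medians were 0.169 for Hes5, 0.0822 for Olig1, 0.0601 for Sox1, 0.0394 for Pax6, 0.0117 for Olig2 and 0 for Olig3. The mean of Nes was highest in WSB/EiJ at 778 ± 225 CPM (938 and 619), followed by C57BL/6J at 516 ± 182 (335 to 774). NOD/ShiLtJ came next at 397 ± 177 (522 and 272). The range of C57BL/6J overlapped with those of both, while WSB/EiJ and NOD/ShiLtJ did not overlap. PWK/PhJ (304 ± 8.91), NZO/HiLtJ (270 ± 7.29), DBA/2J (264, n = 1) and CAST/EiJ (215 ± 38.0) had lower means, close to each other. Their fitted log2 folds against C57BL/6J were -0.83 ± 0.29 (SE) for PWK/PhJ, -0.92 ± 0.34 for NZO/HiLtJ and -1.33 ± 0.34 for CAST/EiJ. NOD/ShiLtJ line AC595, at 272 CPM, was below every PWK/PhJ line (298 to 314). The genes most like Nes were Cnn3 (r = 0.94), Arap3 (0.94) and Tmem237 (0.93), and those most like Hes5 were Csrp2bp (0.87), Epop (0.83) and Ptdss2 (0.76).

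From EpiSC to DE, Nes fell in all 16 lines measured as both. Its level was 188 to 938 CPM in EpiSC (median 314) and 3.74 to 150 CPM in DE (median 20.8), without overlap. In a fit over all 34 libraries with strain as a term, the log2 fold of Nes was -4.17 ± 0.38 (SE; edgeR quasi-likelihood, adjusted p = 5.03e-11). EpiSC libraries were made with a stranded poly(A) kit and DE libraries by SMART-Seq amplification, so cell type and kit cannot be told apart in this or any other comparison of EpiSC with DE. In the same fit 77.2% of 20907 genes passed the threshold of 0.05 on the adjusted p, 39.9% with lower and 37.3% with higher levels in DE.

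Hes5 had 122 counts over the EpiSC libraries and 16 over the DE libraries, of which 9 were in C57BL/6J line 5-1 and 12 DE libraries had 0. It was lower in DE in 15 of 16 lines, with a fitted log2 fold of -3.39 ± 0.53 (SE). Sox1 had 147 and 66 counts and was lower in 14 of 16 lines, with a fitted log2 fold of -1.91 ± 0.71 (SE), or -1.34 with no strain term. Most of the DE counts of Sox1 came from NZO/HiLtJ line AC653 with 33 and C57BL/6J line 44 with 19, while every other DE library had 0 to 3. Both genes passed the filter of 10 counts in 3 libraries only through EpiSC (4 EpiSC and 0 DE libraries for Hes5, 7 and 2 for Sox1), so their folds are given as a description with no p.

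Pax6 did not pass the test between the cell types, with 649 counts over the EpiSC and 476 over the DE libraries. Its log2 fold was -0.26 ± 0.48 (SE; edgeR, adjusted p = 0.635), and 10 of the 16 lines had more Pax6 as DE while 6 had less. The lines started from different levels: in both NOD/ShiLtJ lines Pax6 went down, from 108 to 48 counts and from 105 to 36, and in both NZO/HiLtJ lines it went up, from 2 to 84 and from 6 to 15. The direction turned with the strains fitted: the log2 fold was 0.53 without the C57BL/6J libraries (adjusted p = 0.323) and -1.78 in C57BL/6J alone (adjusted p = 0.0591), a fit chosen after seeing the data. NZO/HiLtJ line AC653, with the 84 counts, was the highest DE library for Pax6 (2.46 CPM), for Sox1 (0.965 CPM), for Sox2 (17.5 CPM, against at most 9.30 elsewhere) and for the summed neural crest list (106 CPM). Its summed level of the 11 neuronal genes was low, 37.3 CPM, against a DE median of 57.6. Whether other cells in that library took part in its Pax6 level was not tested.

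Olig1 and Olig2 were lower in DE chiefly in the strain that had them in EpiSC. Olig1 in C57BL/6J DE had 103 counts in line 2, 19 in line 44, 99 in line 5-1, 52 in line 4 and 56 in line 1. In that order, these were 4.28, 0.717, 1.46, 0.852 and 1.60 CPM. The mean was 1.78 ± 1.45 CPM (SD, n = 5), against 34.3 ± 18.5 in EpiSC, and each of the 5 lines was lower as DE. In the fit over all libraries the log2 fold was -2.02 ± 0.74 (SE) for Olig1 and -4.22 ± 0.86 for Olig2, given with no p because the C57BL/6J EpiSC levels chose Olig1 and both passed the filter through that strain. In C57BL/6J alone the log2 folds were -4.25 and -5.16, and without the C57BL/6J libraries that of Olig1 was -0.12. The other 12 DE libraries had 59 Olig1 counts, 33 of them in WSB/EiJ line AC627. Olig2 had 20 counts in DE of C57BL/6J line 5-1, 2 in line 4, 2 in NZO/HiLtJ line AC653 and 0 in the other 14 DE libraries, each of which allows at most 3 counts.

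**Figure D3:**
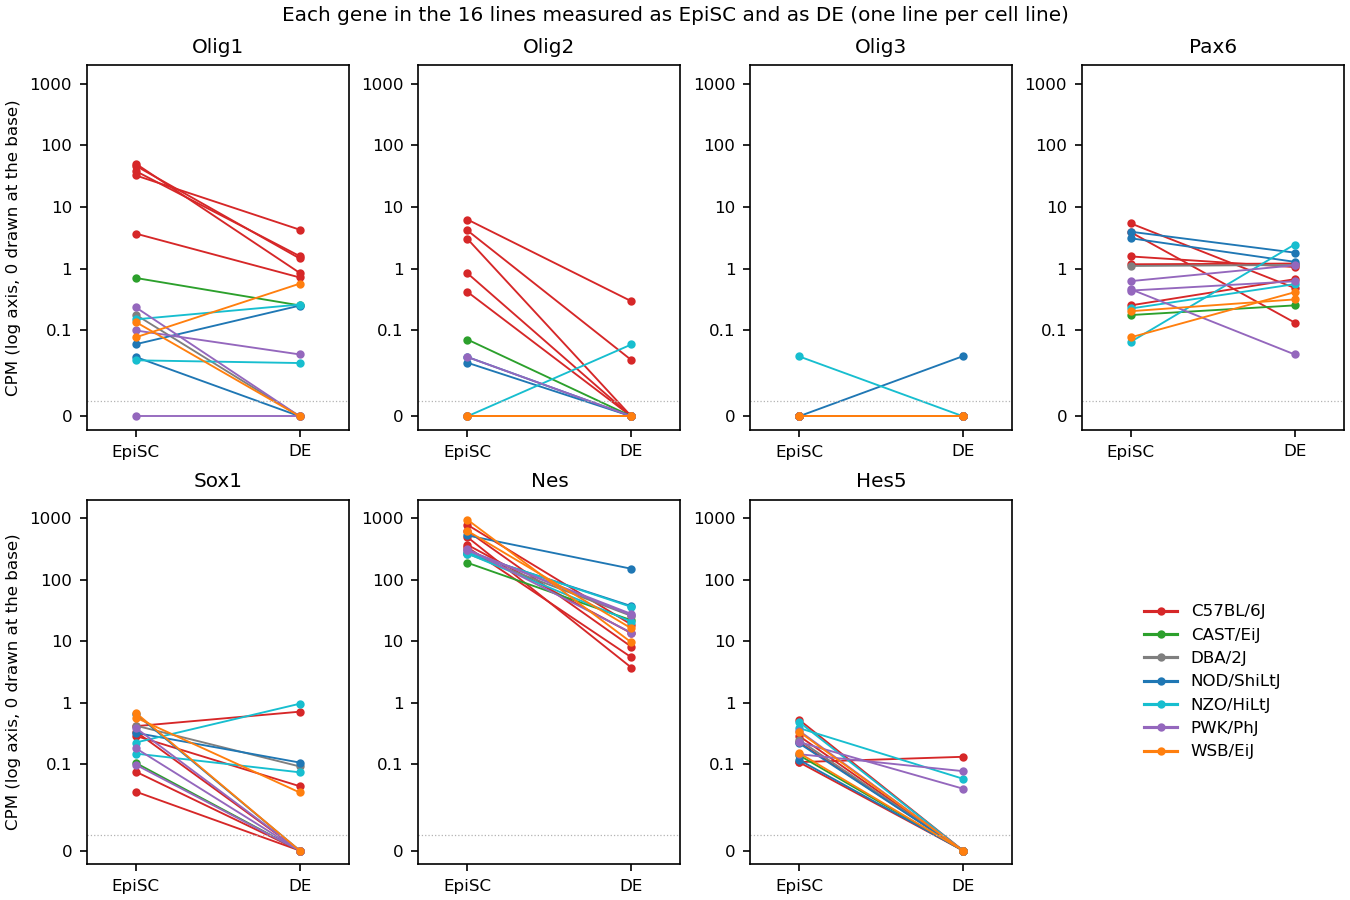
CPM of each gene (log axis, 0 drawn at the base) in the 16 lines measured as EpiSC and as DE, 1 segment per line, coloured by strain. All 16 Nes segments slope down, while those of Pax6 go both ways (10 up, 6 down).

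Strain levels in DE are given for Olig1 as a description and were tested for Nes and Pax6. Olig1 had at least 10 counts in 6 DE libraries, the 5 of C57BL/6J and WSB/EiJ line AC627, and so passed the filter only through the strain where it was high, in the lines it was chosen on. Every C57BL/6J DE library, at 0.717 to 4.28 CPM, was above every other DE library, at 0 to 0.568 CPM. Of the 19290 genes tested in DE 0.187% had this separation, and nothing is read from it. Against C57BL/6J the fitted log2 fold of Olig1, given with no test, was -5.33 ± 1.40 (SE) in PWK/PhJ, -3.92 ± 1.70 in NOD/ShiLtJ, -3.66 ± 1.67 in NZO/HiLtJ and -2.62 ± 1.51 in WSB/EiJ. The PWK/PhJ fold was -5.79 with the mean log2 CPM of the fibroblast genes as a covariate and -4.95 without PWK/PhJ line AC698.

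Nes in DE ran in a different order from that in EpiSC, with C57BL/6J lowest. C57BL/6J lines 2, 44, 5-1, 4 and 1 had 132, 99, 914, 1140 and 286 counts. Lines 5-1 and 4 were sequenced deepest of these, and the levels were 5.49, 3.74, 13.5, 18.7 and 8.15 CPM (9.91 ± 6.13, SD, n = 5). NOD/ShiLtJ line AC576 had 3975 counts, or 150 CPM, and line AC595 had 1041, or 37.2 CPM. PWK/PhJ followed at 33.3 ± 22.2 CPM (n = 4), NZO/HiLtJ at 28.4 ± 10.8, DBA/2J at 25.8, CAST/EiJ at 21.9 and WSB/EiJ at 12.9 ± 4.67 CPM. Both NOD/ShiLtJ lines were above all C57BL/6J lines, and the ranges of WSB/EiJ and C57BL/6J overlapped.

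The F test over the 5 strains with at least 2 DE lines gave an adjusted p of 0.0101 for Nes (edgeR), and 22.3% of all genes passed it. Against C57BL/6J its log2 fold was 3.20 ± 0.60 (SE) in NOD/ShiLtJ (adjusted p = 0.00377, with 11.4% of genes called), 1.64 ± 0.52 in PWK/PhJ (0.0422, with 17.1% called), 1.504 ± 0.61 in NZO/HiLtJ (0.335, with 1.41% called) and 0.37 ± 0.64 in WSB/EiJ (0.906, with 2.28% called). The NOD/ShiLtJ lines, highest in mean Nes, also had the highest fibroblast sums of DE, 2290 and 2169 CPM, against 308 to 890 in PWK/PhJ and 177 to 423 in C57BL/6J. The other strains did not keep that order: DBA/2J had a fibroblast sum of 182 CPM with 25.8 CPM of Nes, NZO/HiLtJ line AC653 230.5 with 20.8, and CAST/EiJ 1040 with 21.9. Line AC576 also had the highest neuronal sum of DE, 688 CPM, with AC595 next at 258, and the part of such cells in its Nes level was not tested. None of the 15 fibroblast genes was at 0 in the NOD/ShiLtJ libraries, nor in those of WSB/EiJ and CAST/EiJ, in PWK/PhJ outside line AC695, or in C57BL/6J line 2. Up to 3 were at 0 in the other C57BL/6J lines, and 3 in DBA/2J. The fibroblast covariate was the mean log2 CPM of these 15 genes, which weights each gene alike, and not their sum. With it, the adjusted p of the F test was 0.345 for Nes and its NOD/ShiLtJ fold was 2.36 (adjusted p = 0.410). Without line AC576 the F test for Nes gave 0.107 and the NOD/ShiLtJ fold was 1.77 (adjusted p = 0.252). The PWK/PhJ fold was 1.19 with the covariate (adjusted p = 0.381) and 1.10 without PWK/PhJ line AC699 (0.180), and it also missed the threshold without any 1 of C57BL/6J lines 2, 44 and 1 and PWK/PhJ lines AC698 and AC705 (adjusted p between 0.0548 and 0.0779).

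**Figure D4:**
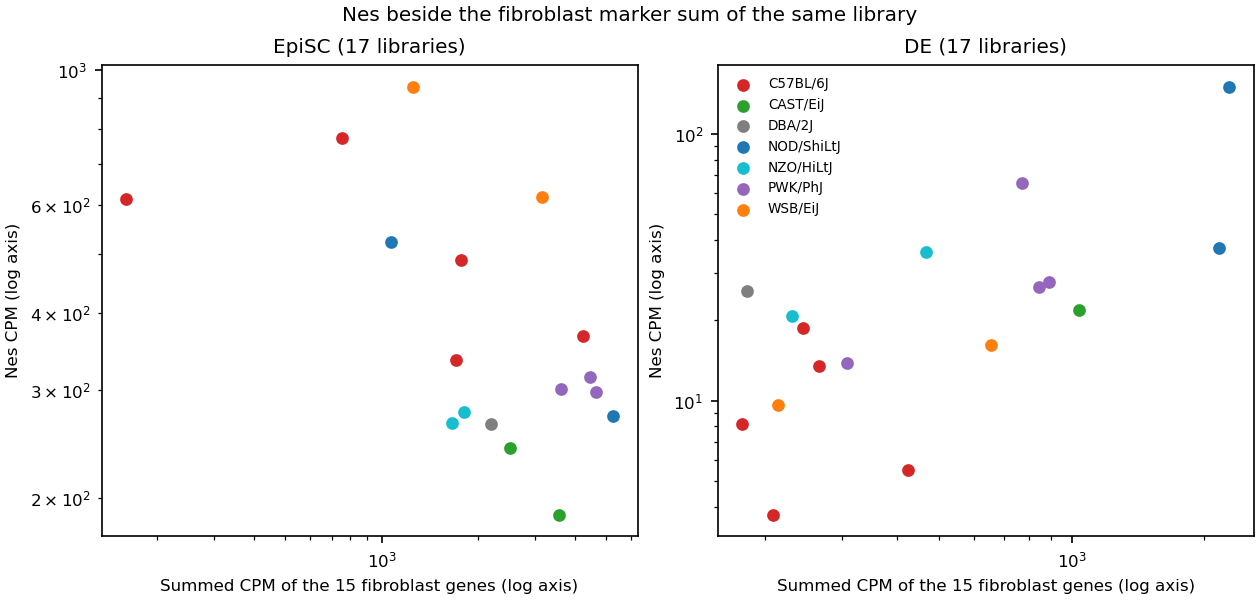
Nes CPM against the summed CPM of 15 fibroblast genes in the same library (both log axes), for EpiSC (left) and DE (right), 1 point per library coloured by strain. In DE the NOD/ShiLtJ library with 150 CPM of Nes also has the highest fibroblast sum, 2290 CPM; in EpiSC the library with the lowest sum, 160 CPM, has 615 CPM of Nes.

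Pax6 in DE did not pass the strain test (edgeR F test, adjusted p = 0.451). Strain means ran from 0.364 ± 0.0688 CPM in WSB/EiJ to 1.55 ± 0.373 in NOD/ShiLtJ among strains with at least 2 lines, with C57BL/6J at 0.711 ± 0.434. The largest Pax6 fold against C57BL/6J was 1.05 ± 0.89 (SE) in NOD/ShiLtJ (adjusted p = 0.538). Of the strains with at least 2 DE lines, NOD/ShiLtJ alone had every line above every C57BL/6J line (1.29 and 1.81 CPM, against at most 1.21). The share of all genes with that separation was not determined, and nothing is read from it.

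Other neural genes changed in both directions between EpiSC and DE. Of a list of 31 neural plate and regional genes, 28 were tested, 11 were higher and 12 lower in DE, with a median log2 fold of -0.62 against -0.06 over all genes. Of all genes tested, 37.3% were higher and 39.9% lower, which is near these shares, and nothing is read from the counts. Hesx1, a homeobox repressor of the forebrain that anterior endoderm also makes, rose from 1.66 ± 2.41 to 63.1 ± 47.9 CPM (SD, n = 17 each; log2 fold 5.96 ± 0.43 SE, edgeR adjusted p = 2.44e-13). The eye-field gene Rax (log2 fold 5.92 ± 0.50) and the SOX gene Sox21 (4.78 ± 0.32) rose as well. Zic2, a zinc finger factor of epiblast and neural plate, fell from 182 ± 29.4 to 9.16 ± 3.25 CPM (-4.40 ± 0.15), the RNA-binding protein gene Msi1 from 70.1 ± 11.8 to 4.71 ± 2.22, and the hindbrain gene Gbx2 by 5.47 on the log2 scale, all past the threshold.

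Of 16 tested Notch pathway genes, 8 rose and 7 fell in DE (median log2 fold 0.69), where 37.3% of all genes rose and 39.9% fell. The ligand gene Dll1 rose from 2.57 ± 1.57 to 55.5 ± 32.3 CPM and Dll3 from 12.4 ± 5.39 to 80.3 ± 39.9. Hes1, a bHLH repressor related to Hes5, rose from 54.4 ± 15.4 to 338 ± 69.0 CPM (log2 fold 2.64 ± 0.10 SE, edgeR adjusted p = 2.07e-20), opposite in direction to Hes5. The receptor genes Notch1 (-3.12 ± 0.26) and Notch2 (-2.07 ± 0.13) and the coactivator gene Maml1 (-2.76 ± 0.11) fell.

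Among oligodendrocyte-lineage genes, 5 of 11 tested rose and 4 fell (median -0.16), against 37.3% and 39.9% of all genes. Mbp, which encodes a myelin protein and has transcripts in other cells, rose from 6.18 ± 3.55 to 53.5 ± 23.6 CPM, and Pdgfra, a growth factor receptor of oligodendrocyte precursors and of mesoderm and early endoderm, from 10.0 ± 5.48 to 48.4 ± 28.5. Cnp rose by 1.19 ± 0.15 on the log2 scale. Myrf, a membrane-bound transcription factor, fell from 104 ± 25.0 to 6.04 ± 3.21 CPM, and Cspg4 by 2.52.

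Of 11 neuronal genes 9 fell and none rose (median log2 fold -3.22), where 39.9% of all genes fell, among them Dcx (-6.72 ± 0.63), Elavl3 (-4.40 ± 0.27) and Map2 (-4.11 ± 0.30). The summed neuronal level, which weights abundant genes, was lower in DE in 14 of 16 lines and higher in both NOD/ShiLtJ lines (254 to 688 CPM in AC576 and 236 to 258 in AC595), and AC576 as DE was above every EpiSC library (at most 351). Of 6 tested neural crest genes, 5 fell and none rose (median -3.17), led by Foxd3, which pluripotent epiblast cells also make, from 36.8 ± 17.7 to 0.0787 ± 0.148 CPM. Ngfr fell by 4.04 and Snai2 fell by 2.30 on the log2 scale.

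**Figure D5:**
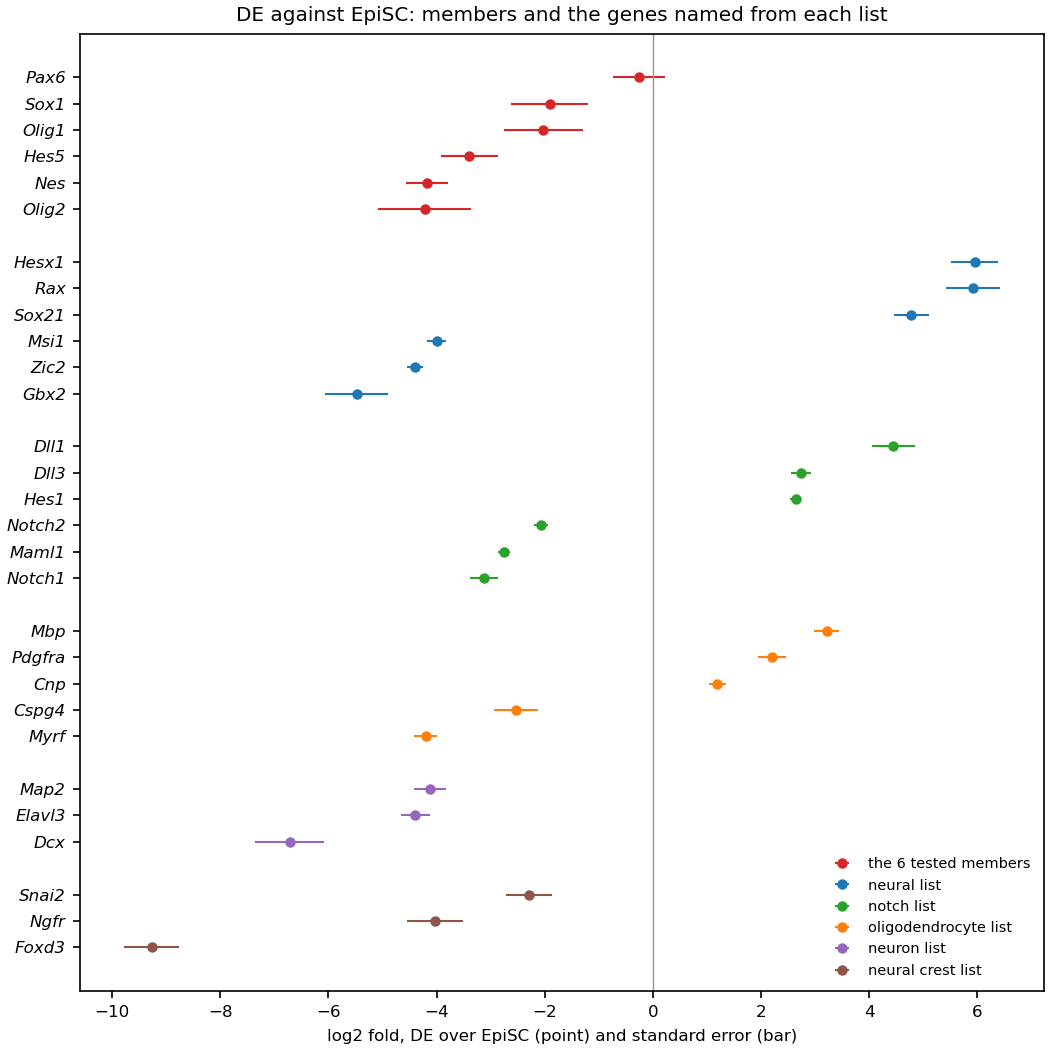
Log2 fold of DE over EpiSC (points) with its standard error (bars) from the fit over 34 libraries, for the 6 tested members and the genes named from each list whose fold is at least 1 in size. Olig1, Olig2, Sox1, Nes and Hes5 lie left of 0, and neural genes lie on both sides, from Hesx1 at 5.96 to Gbx2 at -5.47.

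Across strains in EpiSC, 14 of 26 tested neural genes passed the F test, against 52.8% of all genes. Those with the smallest p were highest in CAST/EiJ, unlike Olig1. Pax3, a dorsal neural tube gene, was at 2.74 ± 0.288 CPM in CAST/EiJ and 0.326 ± 0.171 in C57BL/6J (edgeR F test, adjusted p = 0.000294). Irx3 was at 31.8 ± 11.6 and 6.33 ± 5.01 CPM (0.00365), Fabp7 at 13.7 ± 9.04 and 3.98 ± 1.78 (0.000969), and Sox21 at 12.99 ± 5.64 and 1.65 ± 1.10 (0.00361). The CAST/EiJ EpiSC lines also had endoderm sums of 1256 and 1480 CPM, against 112 to 521 in the other 15 EpiSC libraries, and the part of such cells in these values was not tested. Without CAST/EiJ line WM080 the neural count fell to 9, and Sox21 missed the threshold (adjusted p = 0.0639).

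In the other lists 8 of 16 Notch genes, 4 of 9 oligodendrocyte-lineage genes, 4 of 11 neuronal genes and 3 of 6 neural crest genes passed in EpiSC. The share over all genes tested was 52.8%. Dll3 was at 24.4 ± 3.58 CPM in CAST/EiJ and 5.98 ± 0.467 in NOD/ShiLtJ, and Hes6 at 26.2 ± 0.0790 in NOD/ShiLtJ and 15.0 ± 0.264 in CAST/EiJ. Mal, a myelin and epithelial membrane protein gene, was at 31.2 ± 19.04 CPM in CAST/EiJ and 1.45 ± 1.503 in C57BL/6J. Myrf was highest in NZO/HiLtJ (133 ± 1.45) and lowest in CAST/EiJ (62.8 ± 6.79), a call that ended without CAST/EiJ line WM078 (adjusted p = 0.0575). Stmn2 was highest in WSB/EiJ (126 ± 25.9 CPM), Elavl3 and Twist1 in NZO/HiLtJ (24.8 ± 2.38 and 18.4 ± 1.13), and Ngfr in PWK/PhJ (6.25 ± 1.38). None of these named genes had its highest mean in C57BL/6J.

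In DE, 11 of 25 neural genes passed the strain test, against 22.3% of all genes. Six3, a forebrain and eye gene, was at 11.2 ± 6.15 CPM in C57BL/6J and 0.294 ± 0.0116 in NOD/ShiLtJ (edgeR F test, adjusted p = 0.00163). Rax was at 20.9 ± 3.86 CPM in WSB/EiJ and 0.615 ± 0.495 in NOD/ShiLtJ (0.00342), Pax3 at 8.93 ± 1.33 in WSB/EiJ and 0.153 ± 0.185 in PWK/PhJ (0.00456), and Sox21 at 70.0 ± 13.5 in WSB/EiJ and 20.6 ± 1.44 in NOD/ShiLtJ (0.00498). These 4 kept their calls with the fibroblast covariate.

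Of the remaining lists in DE, 5 of 16 Notch genes, 2 of 10 oligodendrocyte-lineage genes, 4 of 10 neuronal genes and 2 of 4 neural crest genes passed. The share over all genes tested was 22.3%. The neuronal genes Stmn2 and Gap43 were highest in NOD/ShiLtJ (368 ± 247 and 55.7 ± 29.1 CPM), as was Snai2 (9.11 ± 5.50), and their calls ended with the fibroblast covariate (adjusted p = 0.062, 0.747 and 0.507) and without line AC576 (0.150, 0.0508 and 0.0615). Jag1, a Notch ligand gene, was at 111 ± 22.9 CPM in PWK/PhJ and 47.3 ± 18.4 in WSB/EiJ, and Rbpj, the DNA-binding factor of the pathway, at 52.6 ± 18.9 in NZO/HiLtJ and 18.7 ± 0.606 in WSB/EiJ, with Rbpj at an adjusted p of 0.0548 under the covariate. Among the 5 strains compared, Cnp was highest in NOD/ShiLtJ (25.5 ± 5.59) and lowest in PWK/PhJ (8.68 ± 1.36). Mal (adjusted p = 0.0309) lost its call with the covariate (0.293), without line AC576 (0.116) and without any 1 of C57BL/6J line 1, PWK/PhJ line AC698 and WSB/EiJ lines AC635 and AC627 (0.0513 to 0.0655), and Ets1 (0.0476) lost it without any 1 of 10 of the 15 libraries left out.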

How the data were processed

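RNA-seq counts per gene were deposited by the authors as raw counts in 1 table for EpiSC and 1 for DE, and no normalization had been applied. Per the submitters' processing notes, reads were handled with STAR 2.4, HTSeq 0.6.1 and DESeq2 on build mm10 for every strain. Whether reads of strains that differ from the build were counted less fully was not tested. No source used here gives the annotation release, strand setting or treatment of reads with several matches. Library columns were matched to samples by title, 0 columns were unused and 0 entries named no gene. Here, counts were tested with edgeR 4.0.16 in R 4.3.3 (TMM scaling, robust quasi-likelihood F test, at least 10 counts in at least 3 libraries, Benjamini-Hochberg over all genes tested, threshold 0.05). The test scripts were checked on simulated data. CPM used library totals and RPKM the exon bases of GENCODE M21. Cell types were compared over 34 libraries with strain as a term, strains within a cell type by an F test over strains with at least 2 lines. Lines are separate cell lines by label, and p-values measure the spread between lines.

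The members and lists were chosen with earlier results of these data known. From each list, the 3 largest folds in each direction (DE against EpiSC, called, log2 CPM averaging 0 or more) and the 2 smallest strain p-values (4 for neural genes) are named, with the 8 genes most like Olig1 and the 3 most like each other tested member, unnamed predicted genes passed over (log2 CPM, prior count 2), and called genes within 500 kb of Olig1. An oligodendrocyte-lineage gene that this rule names is not reported here. Alternatives were RLE scaling, no count filter, no strain term, DESeq2 1.42.0, a fibroblast covariate, leaving out C57BL/6J or each library, a replicate block, other added CPM and, chosen after seeing the data, C57BL/6J only. EpiSC and DE of a line share their origin: their deviations correlated at -0.000135 to 0.144 over 14 lines (median 0.0364, 6 above 0.1). Deviations were taken from the strain mean in each cell type. The 2 lines of NOD/ShiLtJ, of NZO/HiLtJ and of WSB/EiJ therefore have the same value within their strain and are not separate values. Replicate libraries differed beyond sampling noise (chi-square per degree of freedom at least 6.57 in EpiSC and 31.5 in DE). Counts without molecular identifiers are not independent molecules, so a floor of 3 counts covers counting error only.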

Additional observations from a re-analysis of the deposited data

Results flagged for a closer look

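Within the 5 C57BL/6J lines 3 values stood far from the others, judged by the gap to the nearest line over the whole range on the log2(CPM + 0.1) scale. Line 44 was the low one for Olig1 in EpiSC (115 counts, 3.69 CPM, gap 0.831 of the range). The same line was the high one for Sox1 in DE (19 counts, 0.717 CPM, 0.825). Line 5-1 was the high one for Olig2 in DE (20 counts, 0.295 CPM, 0.794). These are 3 of 13 groups of values looked at. Chance flags about 1 in 20 groups where values spread normally, a rate that need not hold for low counts. In C57BL/6J DE, Sox1 and Olig2 each had 0 counts in 3 of 5 lines, and nothing is read from the number of flags.

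Pax6 moved in opposite directions in different strains, and the difference was not tested. It was higher in DE than in EpiSC in both NZO/HiLtJ lines and both WSB/EiJ lines and lower in both NOD/ShiLtJ lines. The mean log2 ratio of DE to EpiSC, with 0.1 CPM added, differed by 3.63 between NZO/HiLtJ and NOD/ShiLtJ and by 2.14 between WSB/EiJ and NOD/ShiLtJ.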

How the results depend on the processing

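Of the 6 tested members, 5 were past the threshold with lower levels in DE, as were 39.9% of all genes, and nothing is read from the count, since Olig1, Olig2, Hes5 and Sox1 passed the filter through the libraries where they were high. It was 3 without the C57BL/6J libraries (5 tested; Olig1 was no longer called and Olig2 was not tested) and 3 in C57BL/6J only (4 tested). It was 4 with no strain term and 5 with RLE scaling, DESeq2, no count filter or any 1 library left out. The fit with the cell line as replicate block, a paired analysis, called 5 members and changed no call of the members, with log2 folds of -4.40 for Nes, -3.97 for Hes5, -2.89 for Sox1 and -0.15 for Pax6. Of the 3 members tested over strains in DE, 2 (Nes and Olig1) were past the threshold, as were 22.3% of all genes. Nothing is read from this count, since Olig1 was chosen for its C57BL/6J level and passed the filter through that strain. The count was 0 with the fibroblast covariate and 0 to 2 when 1 library was left out (1 without C57BL/6J line 2 or 1 or PWK/PhJ line AC695, AC698 or AC705, 0 without NOD/ShiLtJ line AC576). The neural list had 23 calls in DE against EpiSC, with 19 to 26 over the alternatives and 23 to 24 over the libraries left out, and 24 with the replicate block. Its 14 calls over strains in EpiSC ranged from 9 to 15 over the libraries left out. The log2 ratio of mean Olig1 levels in EpiSC, 6.97, was 4.91 with 1 CPM added and 7.54 with 0.01 CPM added. It was 6.79 to 7.26 without any 1 C57BL/6J line. The Pax6 log2 fold, not called, turned from -0.26 to 0.53 without the C57BL/6J libraries, and no other result reversed. Of 67 results for single genes, some genes being in several comparisons, 54 kept their side of the threshold whichever library was left out. Depth limits Olig3, with 1 count per cell type, Hes5, with at most 14 counts in a library, and Sox1, with at most 33.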
